A study of Mus musculus with 90 samples.

Results

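The axis of the interleukins IL-12, IL-18 and IL-27 was followed as 9 genes: the cytokine chains Il12a, Il12b, Il18 and Il27, the receptor chains Il12rb1, Il12rb2, Il18r1 and Il18rap, and the soluble inhibitor Il18bp. The members were taken by name, and each was read from 1 probe set, the set that names a single gene and has the highest mean over all arrays. Of the 9 members, 8 had such a probe set, among 18194 genes measured in this way. Il27 was not analysed here. The arrays profiled 90 subcutaneous melanoma allografts in mice, all labelled with strain B6.cBrd and genotype Hgftg;Cdk4R24C/R24C. The labels do not say whether this genotype belongs to the graft, the host or both, and the promoter of the Hgf transgene and the age of the mice are not given in the sources used here.

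Tumours came from 2 studies, numbered 2 and 3. Anti-PD-L1 (mouse IgG1 D265A, clone 80), an antibody that blocks the ligand of the T cell checkpoint PD-1, was labelled at 10 mg/kg, as was a control mouse IgG. Vehicle controls received PBS at 10 ml/kg. Under anti-PD-L1, responders had lost at least 5% of their volume, while non-responders had kept growing. Study 2 held 17 responders, 14 non-responders, 14 IgG and 3 PBS tumours, with 3 relapses (regrowth after regression below a measurable size) and 2 growth delay tumours (which appeared only after treatment). Study 3 held 10 responders, 9 non-responders, 8 IgG and 4 PBS tumours, with 3 relapses and 3 stabilization tumours (responders whose volume stayed level between measurements). Animal numbers fall into a block of their own for each treatment arm in both studies, so a difference from a control and a difference between cohorts cannot be told apart. Outcomes under anti-PD-L1 are mixed within 1 block in each study. Each label carries its own animal number, and p-values therefore measure the spread between tumours.

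IL-12 is a pair of the chains encoded by Il12a and Il12b, made mainly by dendritic cells and macrophages. It binds a receptor of Il12rb1 and Il12rb2 on T cells and natural killer cells, acts through the kinases TYK2 and JAK2 and the factor STAT4, and promotes interferon gamma production. IL-18 is stored as a precursor that inflammasome-driven caspase 1 cleaves. It signals through Il18r1 and the accessory chain Il18rap to MYD88, acts together with IL-12, and is held in check by the secreted decoy protein encoded by Il18bp. IL-27 pairs the product of Il27 with that of Ebi3 and binds a receptor of Il27ra and Il6st, while Il12b and Il12rb1 also serve IL-23.

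Il18r1 and Il18rap, the receptor chains of IL-18, are neighbours in the RefSeq annotation of GRCm38.p6. Their upstream windows are shown with that of Il18bp because these 3 members varied together between tumours, as described below. The windows hold the 250 bases before a RefSeq start site, on assembly GRCm38.p6. They are Il18r1 at its most downstream start of 3 (chr1:40465756-40466005, plus strand), Il18rap (chr1:40515112-40515361, plus strand) and Il18bp (chr7:102018233-102018482, minus strand). Capitals mark matches to TTCNNNGAA, a form of the GAS element that STAT factors bind.

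Il18r1: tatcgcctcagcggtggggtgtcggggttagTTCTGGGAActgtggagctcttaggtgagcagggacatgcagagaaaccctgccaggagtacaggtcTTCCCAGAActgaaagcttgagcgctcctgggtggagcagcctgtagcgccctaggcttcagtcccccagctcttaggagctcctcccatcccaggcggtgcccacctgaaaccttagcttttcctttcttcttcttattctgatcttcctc
Il18rap: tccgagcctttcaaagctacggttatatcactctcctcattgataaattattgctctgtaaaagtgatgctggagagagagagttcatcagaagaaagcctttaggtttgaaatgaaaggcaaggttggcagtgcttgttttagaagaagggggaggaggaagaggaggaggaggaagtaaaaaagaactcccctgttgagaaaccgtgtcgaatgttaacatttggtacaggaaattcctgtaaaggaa
Il18bp: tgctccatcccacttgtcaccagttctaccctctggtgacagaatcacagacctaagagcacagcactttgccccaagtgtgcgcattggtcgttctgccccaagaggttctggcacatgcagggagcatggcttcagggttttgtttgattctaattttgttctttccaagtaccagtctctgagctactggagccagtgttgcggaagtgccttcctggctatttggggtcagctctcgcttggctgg

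The Il18r1 window held 2 such matches, at 219 to 211 and at 152 to 144 bases before the start, and the windows of the other two held none. RefSeq start sites were listed for 7 of the 9 members, in 10 windows. Il12rb2 held 1 match, and the remaining windows of Il12a, Il12b, Il18 and Il18r1 held none. A paired interferon regulatory factor form, GAAANNGAA, was in no window of the 7. Both strands were searched, and TTCNNNGAA reads the same on both. Of 32851 promoter windows of this length, 7.0% held TTCNNNGAA and 7.1% held GAAANNGAA. These matches are descriptions of the letters only.

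Levels are given as log2 RMA values, in which a step of 1 is a doubling. As a guide to background, 39 olfactory receptor genes, taken to stand for probe sets with little specific signal, had a median of 4.10 and a 95th percentile of 5.36. Il12a, which encodes the p35 chain of IL-12, averaged 4.02 over the 90 tumours, and 0 of them rose above that percentile. Il12rb2, the signalling chain of the IL-12 receptor, averaged 4.01, also with 0 of 90 above it. Il12b, which encodes the p40 chain, averaged 4.90 and exceeded it in 10 of 90 tumours. These 3 members are among the 7277 genes with the lowest means and are called dim. Array values near background are compressed, so differences in these members can understate a change in the transcript.

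The other 5 measured members were brighter. Il18 and Il18bp averaged 8.11 and 8.20 and lay above the olfactory 95th percentile in 90 of 90 tumours. Il18rap averaged 6.75, also above it in 90 of 90, Il12rb1 averaged 6.90 with 83 of 90, and Il18r1 averaged 6.19 with 69 of 90. Il18r1 stood only just above the line for dim genes, at the 40.5th percentile of mean level. In spread over tumours Il18r1, Il12rb1, Il18bp, Il18 and Il18rap lay at the 99.2nd, 98.4th, 97.5th, 97.4th and 91.0th percentiles of all genes. Probe sets differ in affinity, so these levels do not rank the members against each other.

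**Figure D1:**
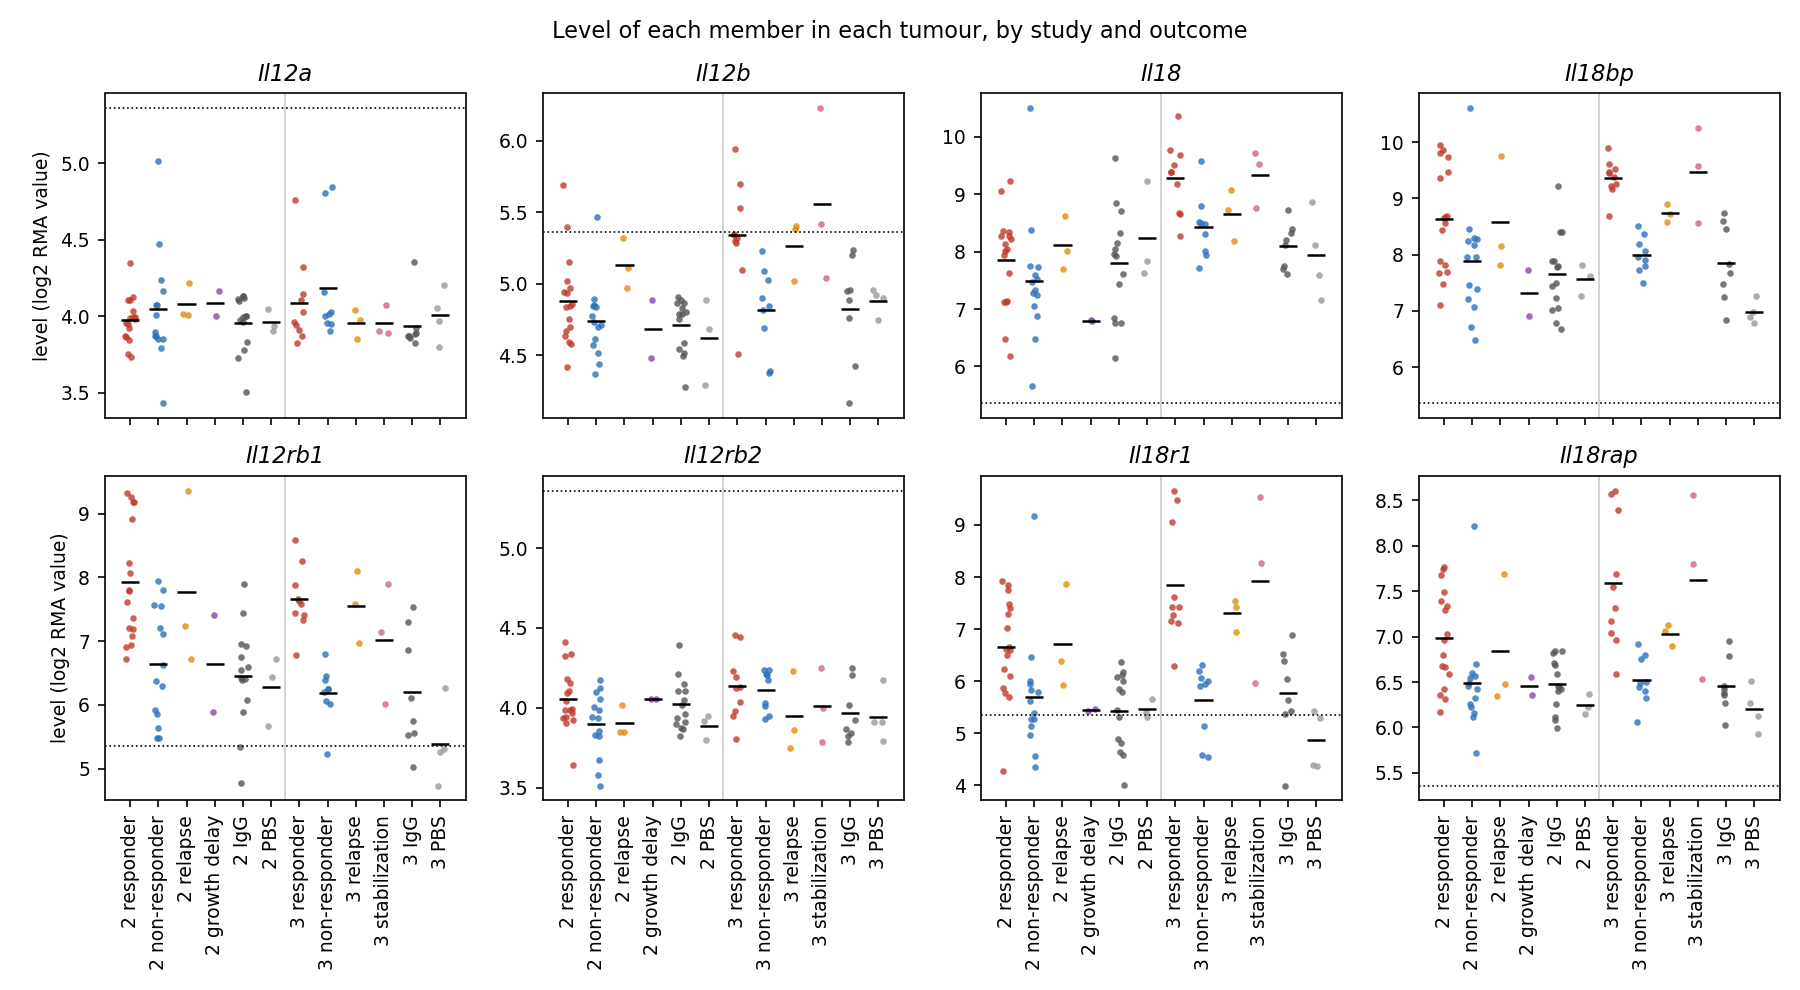
Each panel plots 1 member; points are the log2 RMA values of single tumours in the 12 study-by-outcome groups (the first number is the study), black bars are group means, and the dotted line is the olfactory 95th percentile of 5.36. Vertical scales differ between panels. Il12a and Il12rb2 lie under the line in 90 of 90 tumours, while the group means of Il12rb1, Il18bp, Il18r1 and Il18rap are higher in responders than in non-responders of the same study, a difference called for all 4 in study 3 and for Il12rb1 alone in study 2.

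Some facts on the tumours bear on the members. In 4 of the 90 the mean of a melanocyte list lay under 9: study 2 non-responder replicate 14 (8.50), study 3 responder replicates 3 and 4 (6.82 and 6.69) and study 3 stabilization replicate 1 (6.99). Study 2 non-responder replicate 14 also carried a T cell list mean of 9.82 and a B cell list mean of 9.88. Responder replicate 3 of study 3, which held the highest Il18r1 value of all tumours (9.66), carried a T cell list mean of 9.93, a B cell list mean of 10.29 and an adipocyte list mean of 11.74. Responder replicate 4 of study 3 carried a skeletal muscle list mean of 13.74. Results that these tumours move are given with and without them. The tumour label was borne out in the other 86, where the melanocyte list mean lay at 9 or higher.

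The first comparison asked how regressing tumours differed from tumours that grew under the same antibody. With both studies weighted equally, Il12rb1, Il18r1, Il18rap, Il18bp, Il12b and Il18 were higher in responders, and none of the 8 measured members was lower. In the limma fit across all genes 18.9% of genes were called higher in responders at a Benjamini-Hochberg adjusted p under 0.05, and 32.3% were called lower. The median difference of the 8 members was 0.70 on the log2 scale, and that of all genes was -0.06. The members were chosen with earlier results of these data known, so this count is a description of them.

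Among the ligand chains, Il18 ranged from 6.18 to 9.23 with a median of 8.04 in the 17 study 2 responders, and from 5.66 to 10.50 with a median of 7.41 in the 14 non-responders. In study 3 it ranged from 8.27 to 10.36 (median 9.39) in responders and from 7.71 to 9.58 (median 8.48) in non-responders. The groups overlapped in both studies, and the highest value of study 2 belonged to non-responder replicate 14. Il18 was higher in responders by 0.61 ± 0.23 (limma's SE), 1.53-fold, with an adjusted p of 0.0215. Within study 3 alone the difference was 0.86 ± 0.36 with an adjusted p of 0.0499, a call that 4 of the alternative settings ended, and in study 2 it was 0.37 ± 0.28 with an adjusted p of 0.3779.

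Il12b, dim throughout, ranged from 4.42 to 5.69 (median 4.84) in study 2 responders and from 4.37 to 5.47 (median 4.72) in non-responders. In study 3 its range was 4.51 to 5.94 (median 5.33) in responders and 4.38 to 5.23 (median 4.84) in non-responders. In study 3, 8 of 10 responders lay above the highest non-responder, while in study 2 the ranges largely coincided. The difference over both studies was 0.33 ± 0.09, 1.26-fold, with an adjusted p of 0.0020. The second probe set of Il12b gave 0.12 ± 0.07 with an adjusted p of 0.1385 over all probe sets, so the Il12b difference rests on 1 of its 2 probe sets. Their levels correlated at r = 0.59 over the 90 tumours.

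Il12a ranged from 3.73 to 4.35 (median 3.98) in study 2 responders, from 3.43 to 5.02 (median 3.96) in study 2 non-responders, from 3.82 to 4.76 (median 4.00) in study 3 responders and from 3.90 to 4.85 (median 4.02) in study 3 non-responders. Values in every group centred on the level of the olfactory genes. The difference of -0.08 ± 0.07, with a 95% confidence interval of -0.22 to 0.06, did not pass (adjusted p 0.3237). At this signal the array shows no measurable Il12a level, which is not evidence that the transcript is absent.

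Among the receptor chains, Il12rb1 is shared by the receptors of IL-12 and IL-23. Its level ranged from 6.73 to 9.33 (median 7.79) in study 2 responders and from 5.48 to 7.95 (median 6.50) in non-responders. In study 3 it ranged from 6.79 to 8.58 (median 7.60) in responders and from 5.23 to 6.79 (median 6.24) in non-responders. All 17 study 2 responders lay above the non-responder median and 7 above the highest non-responder, and 9 of 10 study 3 responders lay above every non-responder. Il12rb1 was higher by 1.39 ± 0.23, 2.61-fold, with an adjusted p of 2.97e-05. It was the only member called in study 2 taken alone, at 1.30 ± 0.29 (adjusted p 0.0099), and in study 3 the difference was 1.47 ± 0.37 (adjusted p 0.0029).

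Il12rb2, the partner chain through which STAT4 is recruited, behaved otherwise on this array. It ranged from 3.64 to 4.41 (median 3.99) in study 2 responders and from 3.51 to 4.18 (median 3.94) in non-responders, and from 3.80 to 4.46 (median 4.13) in study 3 responders against 3.93 to 4.24 (median 4.17) in non-responders. The groups overlapped at background level, though 4 of 17 responders in study 2 and 2 of 10 in study 3 lay above the highest non-responder. The difference of 0.09 ± 0.05, with an interval of -0.01 to 0.19, did not pass (adjusted p 0.1378). It passed with array weights (0.13 ± 0.05, adjusted p 0.0299) and with quantile normalization within study (0.15 ± 0.05, adjusted p 0.0190), and in study 2 alone it passed once the 4 tumours low in melanocyte transcripts were left out (0.18 ± 0.06, adjusted p 0.0377).

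Il18r1, the ligand-binding chain of the IL-18 receptor, ranged from 4.28 to 7.92 (median 6.62) in study 2 responders and from 4.36 to 9.17 (median 5.50) in non-responders. In study 3 the range was 6.29 to 9.66 (median 7.43) in responders and 4.54 to 6.30 (median 5.95) in non-responders. In study 2, 16 of 17 responders lay above the non-responder median, though the lowest value of both groups was a responder's and the highest was that of non-responder replicate 14. In study 3, 9 of 10 responders lay above every non-responder. The difference was the largest among the members, 1.58 ± 0.27 or 3.00-fold, with an adjusted p of 3.66e-05.

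Il18rap, the accessory chain that completes the signalling receptor, ranged from 6.17 to 7.76 (median 6.97) in study 2 responders and from 5.72 to 8.22 (median 6.44) in non-responders. In study 3 it ranged from 6.58 to 8.61 (median 7.43) in responders and from 6.06 to 6.92 (median 6.49) in non-responders. It followed the pattern of Il18r1, with 9 of 10 study 3 responders above every non-responder. The difference was 0.78 ± 0.14, 1.72-fold, with an adjusted p of 5.67e-05. Its second probe set gave 0.50 ± 0.11 with an adjusted p of 7.87e-04, and both sets correlated at r = 0.88 over tumours.

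Il18bp, the decoy that binds free IL-18, was the only member whose responders and non-responders did not overlap in a study. Its level ranged from 8.69 to 9.89 (median 9.42) in study 3 responders and from 7.49 to 8.50 (median 7.95) in non-responders. All 10 responders of study 3 lay above all 9 non-responders, as was so for 0.577% of all genes in that study. In study 2 the range was 7.10 to 9.95 (median 8.66) in responders and 6.48 to 10.60 (median 7.96) in non-responders, and the groups overlapped. Over both studies Il18bp was higher by 1.06 ± 0.21, 2.09-fold, with an adjusted p of 1.64e-04.

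Taken by study, 6 of 8 members were called higher in study 3 against 14.4% of all genes, and 1 of 8 in study 2 against 0.616%. The study 2 count depended on 1 tumour: without non-responder replicate 14 it was 4. The number called over all 18194 genes rose too, from 112 higher and 366 lower to 2872 in either direction. Without all 4 tumours low in melanocyte transcripts the study 2 count was 5, with 4370 of all genes called in either direction. The study 3 count was also 5, as Il18 then had an adjusted p of 0.1228 in limma. The estimates were larger in study 3 for Il18r1 (2.22 ± 0.43 against 0.95 ± 0.34) and Il18rap (1.07 ± 0.22 against 0.50 ± 0.17). Leaving out the 4 low tumours brought the estimates nearer, to 1.79 ± 0.39 against 1.22 ± 0.29 for Il18r1 and 0.82 ± 0.20 against 0.63 ± 0.15 for Il18rap. The difference between studies was itself tested and passed for 0 of 8 members and 0% of all genes in limma, where 2418 of all genes had an unadjusted p under 0.05. For Il18r1 that difference was 1.27 ± 0.54, with an interval of 0.20 to 2.33 and an adjusted p of 0.3451, and it was 0.57 ± 0.49 without the low tumours.

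**Figure D2:**
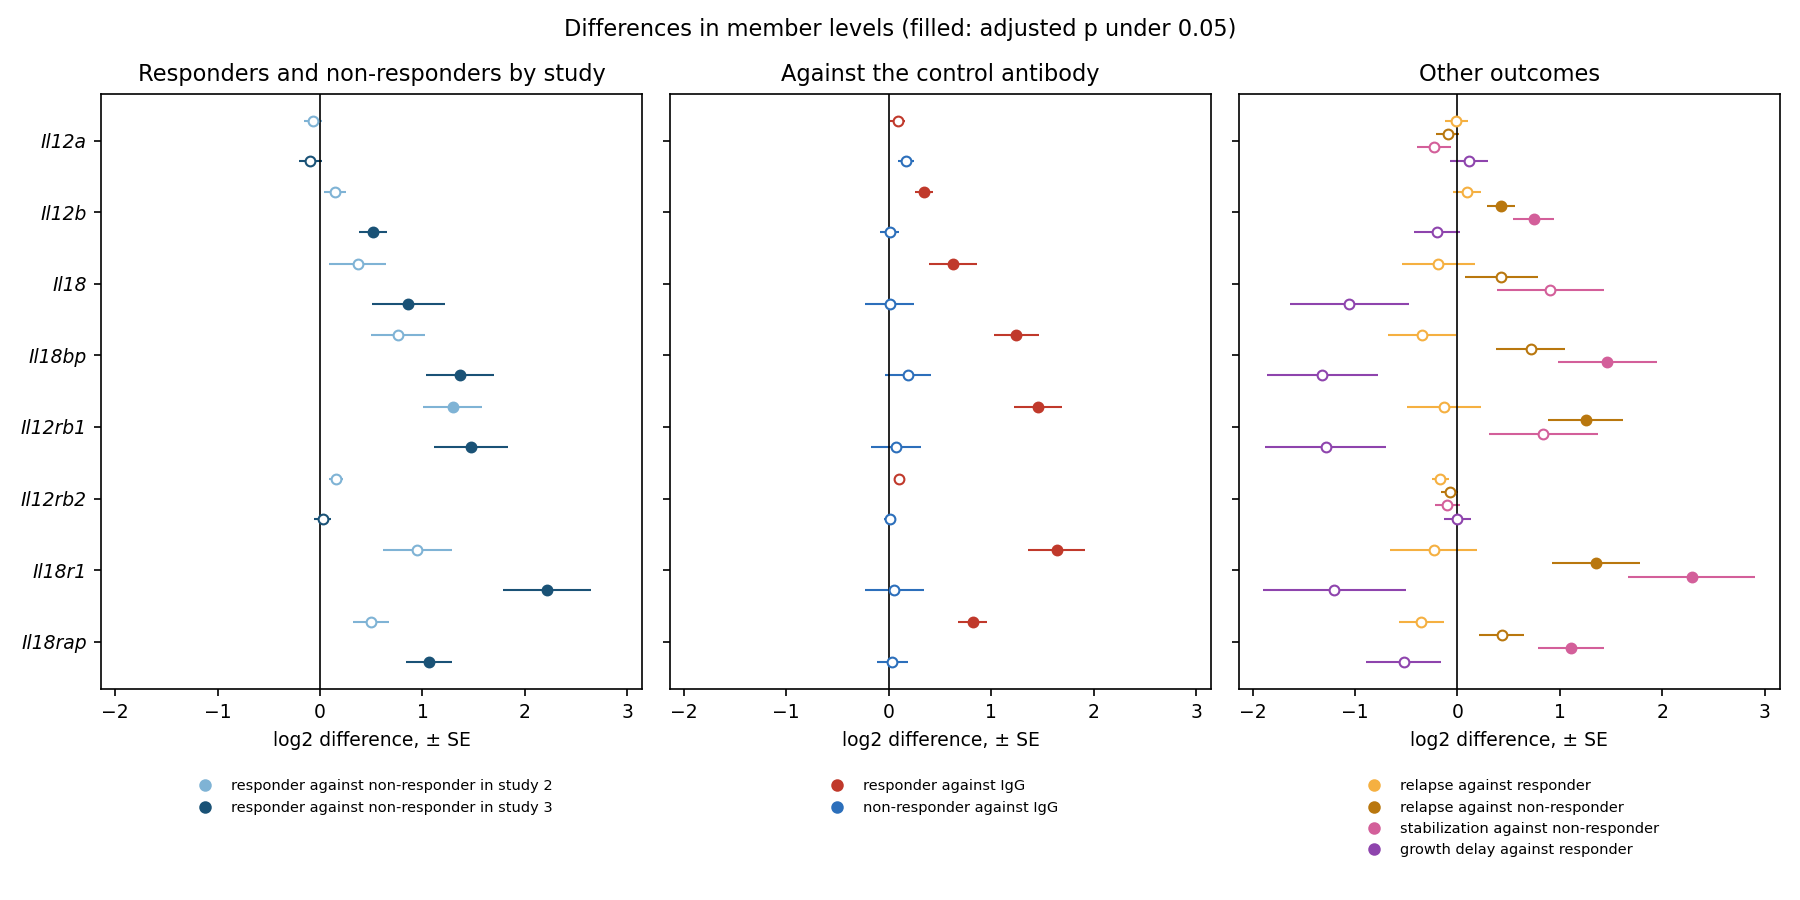
Points are log2 differences in level between groups for the 8 measured members, bars are limma's SE, and filled points passed a Benjamini-Hochberg adjusted p under 0.05 over 18194 genes. Responders exceeded IgG tumours in 6 of 8 members, non-responders in 0 of 8, and Il18r1 shows the widest spread of estimates between comparisons.

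The control antibody gave the background for both outcomes. Responders exceeded IgG tumours in the same 6 members, where 15.3% of all genes were called higher and 20.1% lower, and non-responders differed from IgG tumours in 0 of 8. These comparisons share the IgG tumours, and the first shares its responders with the comparison above. Il12rb1 in IgG tumours ranged from 4.79 to 7.90 (median 6.48) in study 2 and from 5.03 to 7.54 (median 5.93) in study 3, overlapping the responders in both. In PBS tumours it stood at 6.72, 5.68 and 6.43 in study 2 and at 5.26, 6.27, 5.30 and 4.74 in study 3. The responder difference was 1.46 ± 0.24 for Il12rb1, 1.64 ± 0.28 for Il18r1, 1.25 ± 0.22 for Il18bp and 0.82 ± 0.14 for Il18rap. It was 0.62 ± 0.23 for Il18 (adjusted p 0.0306) and 0.35 ± 0.09 for Il12b (adjusted p 0.0033). The second probe set of Il12b gave 0.07 ± 0.07 with an adjusted p of 0.4139 in limma over all probe sets. Here too the Il12b difference rests on 1 of its 2 probe sets.

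Il18bp in IgG tumours ranged from 6.69 to 9.22 (median 7.64) in study 2 and from 6.84 to 8.74 (median 7.76) in study 3. In study 3, 9 of 10 responders lay above every IgG tumour, and in study 2, 6 of 17 did. Il18r1 in IgG tumours ranged from 4.00 to 6.38 (median 5.61) in study 2 and from 4.00 to 6.88 (median 5.84) in study 3. The highest IgG tumour lay below 11 of 17 responders in study 2 and below 9 of 10 in study 3. Il18 averaged 7.86 in responders and 7.80 in IgG tumours of study 2, and 9.29 and 8.10 in study 3. Its difference from IgG tumours thus came almost wholly from study 3, though neither study was tested alone. Without the tumours low in melanocyte transcripts Il18 no longer passed (0.56 ± 0.22, adjusted p 0.0521).

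For non-responders against IgG tumours, 0.00550% of all genes were called, a single gene, and 1101 had an unadjusted p under 0.05 in limma. The estimates were 0.07 ± 0.24 for Il12rb1, 0.06 ± 0.29 for Il18r1, 0.04 ± 0.15 for Il18rap, 0.01 ± 0.24 for Il18 and 0.19 ± 0.22 for Il18bp. Their 95% intervals were -0.41 to 0.55, -0.50 to 0.62, -0.26 to 0.33, -0.46 to 0.48 and -0.25 to 0.62. A rise of the size seen in responders thus lay outside the interval for Il12rb1, Il18r1, Il18rap, Il18bp and Il18, though a smaller difference would not have been detectable. IgG against PBS gave 0 of 8 members (0.00550% of all genes), with the largest estimates for Il12rb1 at 0.50 ± 0.35 and Il18bp at 0.48 ± 0.32.

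Relapse tumours, which had regressed and then grew again under the antibody, were set against both outcomes and against IgG tumours. Il12rb1 stood at 9.36, 7.24 and 6.72 in the 3 relapses of study 2, and at 7.58, 6.97 and 8.10 in those of study 3. Il18r1 stood at 7.87, 6.38 and 5.92 in study 2 and at 7.54, 6.95 and 7.43 in study 3. All 3 study 3 relapses lay above every non-responder for both genes, whereas in study 2 the values spread over the ranges of responders and non-responders. The share of all genes with such a separation between groups of this size was not counted, so it is a description.

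Il12b in relapses was 5.11, 4.97 and 5.32 in study 2 and 5.38, 5.40 and 5.02 in study 3. Only 2 of these 6 values, both from study 3, lay above the olfactory 95th percentile of 5.36. Il18bp stood at 9.75, 8.16 and 7.82 in study 2 and at 8.91, 8.59 and 8.72 in study 3. In study 3 the relapses lay below the responder median for Il18bp, and the highest non-responder stood at 8.50. Il18rap stood at 7.69, 6.48 and 6.34 in study 2 and at 7.13, 6.89 and 7.07 in study 3, and Il18 at 8.01, 7.70 and 8.62 and at 9.08, 8.19 and 8.73.

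Against non-responders, 3 of 8 members were called higher in relapses, with 9.96% of all genes called higher: Il12b by 0.42 ± 0.14, Il12rb1 by 1.25 ± 0.37 and Il18r1 by 1.35 ± 0.43, with adjusted p of 0.0267, 0.0177 and 0.0247. Without study 2 relapse replicate 1, whose Il12rb1 and Il18r1 were the highest of that group, none of the 3 passed (adjusted p 0.0703, 0.1234 and 0.1142), and Il12rb1 was then 0.86 ± 0.39. Leaving out other single relapses also ended calls: 1 for each of study 2 replicate 3 and study 3 replicate 2, and 2 for each of study 3 replicates 1 and 3. Against responders, 0 of 8 members and 0% of all genes were called in limma, and 962 genes had an unadjusted p under 0.05. The relapse minus responder intervals were wide, -0.84 to 0.58 for Il12rb1, -1.06 to 0.59 for Il18r1 and -0.99 to 0.30 for Il18bp, so these groups are not shown to be alike. Against IgG tumours 0 of 8 were called, with 1.09% of all genes called, and Il12rb1 came closest at 1.33 ± 0.37 (adjusted p 0.0502). That count was 5 with only the compared groups fitted, 5 with array weights and 4 once the low tumours were left out.

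The 3 stabilization tumours of study 3 differed widely among themselves. Il18r1 stood at 8.27, 9.53 and 5.96, Il18rap at 7.80, 8.56 and 6.53, and Il18bp at 9.57, 10.25 and 8.57. The third tumour was the lowest for all 3 genes and lay within the non-responder range for Il18r1 and Il18rap. Il12rb1, at 6.02, 7.90 and 7.14, was lowest in the first tumour instead, the one low in melanocyte transcripts. Il12b stood at 6.23, 5.42 and 5.04, and Il18 at 9.53, 9.71 and 8.77.

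Against non-responders, 4 of 8 members were called higher in stabilization tumours, where 13.3% of all genes were: Il12b by 0.74 ± 0.20, Il18bp by 1.46 ± 0.49, Il18r1 by 2.29 ± 0.62 and Il18rap by 1.11 ± 0.32. Without stabilization replicate 1, and likewise without all tumours low in melanocyte transcripts, none of the 4 passed; without replicate 1 Il12b was 0.41 ± 0.22 and Il18r1 was 2.11 ± 0.73 (adjusted p 0.2124). Without replicate 2, Il18bp, Il18r1 and Il18rap no longer passed. The second probe set of Il12b was not read in this comparison. Against responders 0 of 8 were called, with 0.110% of all genes called.

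The 2 growth delay tumours of study 2 lay low against responders in the members that are not dim. Il12rb1 stood at 7.40 and 5.88, Il18bp at 7.72 and 6.92, Il18r1 at 5.47 and 5.43, Il18rap at 6.36 and 6.55, and Il18 at 6.81 and 6.79. All these values lay below the responder median of the gene concerned. Of the dim members, Il12a and Il12rb2 lay above it in both tumours and Il12b in 1 of 2. The differences from responders, -1.29 ± 0.59 for Il12rb1, -1.32 ± 0.54 for Il18bp and -1.20 ± 0.70 for Il18r1, did not pass, and 0 of 8 members and 0.126% of all genes were called. Against IgG tumours 0 of 8 members and 0% of all genes were called in limma, where 989 genes had an unadjusted p under 0.05.

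The order of group means within a study summarises these levels. In study 3, Il12rb1 descended from responder (7.66 ± 0.50, SD, n = 10) through relapse (7.55 ± 0.57, n = 3), stabilization (7.02 ± 0.95, n = 3), IgG (6.21 ± 0.92, n = 8) and non-responder (6.18 ± 0.42, n = 9) to PBS (5.39 ± 0.64, n = 4). In study 2 the same gene descended from responder (7.93 ± 0.92, n = 17) through relapse (7.77 ± 1.40, n = 3), growth delay (6.64 ± 1.08, n = 2), non-responder (6.64 ± 0.89, n = 14) and IgG (6.46 ± 0.79, n = 14) to PBS (6.28 ± 0.54, n = 3). For Il12rb1 only the step from non-responder to PBS in study 3 was wider than the SD of both neighbours. Over all 8 members and both studies, 10 of 80 neighbouring steps were that wide. Of these, 4 led down from the relapse group of study 3, for Il12b, Il18bp, Il18r1 and Il18rap.

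Il18bp in study 3 had 3 wide steps: responder (9.37 ± 0.32) to relapse (8.74 ± 0.16), relapse to non-responder, and IgG (7.86 ± 0.69) to PBS (6.99 ± 0.21). Stabilization tumours stood at its top with 9.46 ± 0.85, a step to responders that was within their spread. Il18 was ordered otherwise in study 2, where PBS (8.23 ± 0.88) and relapse (8.11 ± 0.47) stood above responders (7.86 ± 0.82), IgG (7.80 ± 0.95) and non-responders (7.49 ± 1.08), with growth delay lowest (6.80 ± 0.02). No step between these Il18 means was wider than the SD of both neighbours.

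Il18 was also set against its decoy within each tumour. A difference between probe sets has no meaning as a level, so only its change between groups is described. Il18bp minus Il18 averaged 0.78 ± 0.81 (SD) in study 2 responders, 0.39 ± 0.76 in non-responders and -0.15 ± 0.68 in IgG tumours. In study 3 it averaged 0.08 ± 0.51, -0.43 ± 0.47 and -0.24 ± 0.55 in the same order. In both studies the mean was highest in responders of these 3 groups, with ranges that overlapped, and the shift was not tested.

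**Figure D3:**
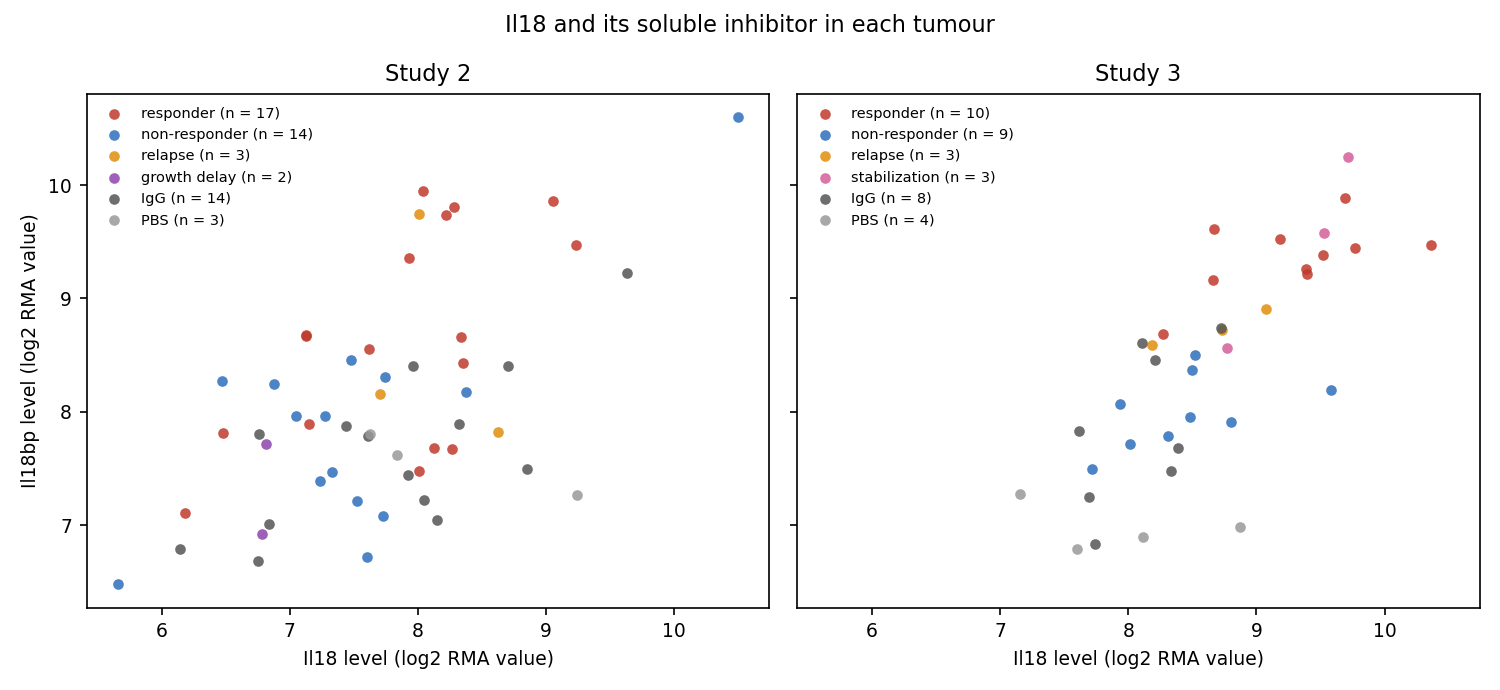
Each point is 1 tumour, with the Il18 level on the horizontal axis and the Il18bp level on the vertical axis (both log2 RMA values), coloured by outcome, for study 2 and study 3. In study 3 the 10 responders lie above the 9 non-responders on the vertical axis while overlapping them on the horizontal axis; the point at the upper right of study 2 is non-responder replicate 14.

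Within groups the members formed a looser and a tighter set. Correlations were taken over the 90 tumours after subtracting each group's mean, and the tumours share arrays, normalization and cell mixture, so they are descriptions. Il18r1 and Il18rap varied together most closely (r = 0.89), followed by Il18bp with Il18r1 (0.82), Il12rb1 with Il18bp (0.80) and Il18bp with Il18rap (0.75). Il12rb1 and Il18 hardly varied together (0.16), while Il18 reached 0.62 with Il18rap, 0.59 with Il18r1 and 0.58 with Il18bp. Without the 4 tumours low in melanocyte transcripts these values were 0.84, 0.83, 0.84, 0.75, 0.13, 0.53, 0.48 and 0.48 over 86 tumours. The lead of Il18r1 with Il18rap was then gone, since Il12rb1 with Il18bp was marginally higher.

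The genes whose pattern was most like each member differed by member. For Il12rb1 they were Igtp (r = 0.90), Batf2 (0.88) and Irgm2 (0.87), of which Igtp and Irgm2 encode interferon-inducible GTPases. For Il18 they were Tyrobp (0.93), an adaptor of myeloid and natural killer cell receptors, Dnajc15 (0.92) and Evi2a (0.92). For Il18bp they were Tapbpl (0.93), which edits peptides on class I molecules, Gzmb (0.92), the cytotoxic protease granzyme B, and Nkg7 (0.92), a cytotoxic granule protein.

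For Il18r1 they were Ipcef1 (0.94), Ptpn22 (0.93), a phosphatase of lymphocyte receptor signalling, and the chemokine gene Ccl5 (0.93). For Il18rap they were the T cell adaptor gene Sh2d2a (0.90), the T cell receptor segment Trav9d-3 (0.90) and Cd8a (0.90), a chain of the CD8 coreceptor. The 1 in 100 most alike genes of these members began at r between 0.56 (Il12rb1) and 0.79 (Il18r1). With the 4 low tumours left out, the first gene remained Tyrobp for Il18 and Ipcef1 for Il18r1, and became Batf2 for Il12rb1, Cd3g for Il18bp and Trav9d-3 for Il18rap.

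**Figure D4:**
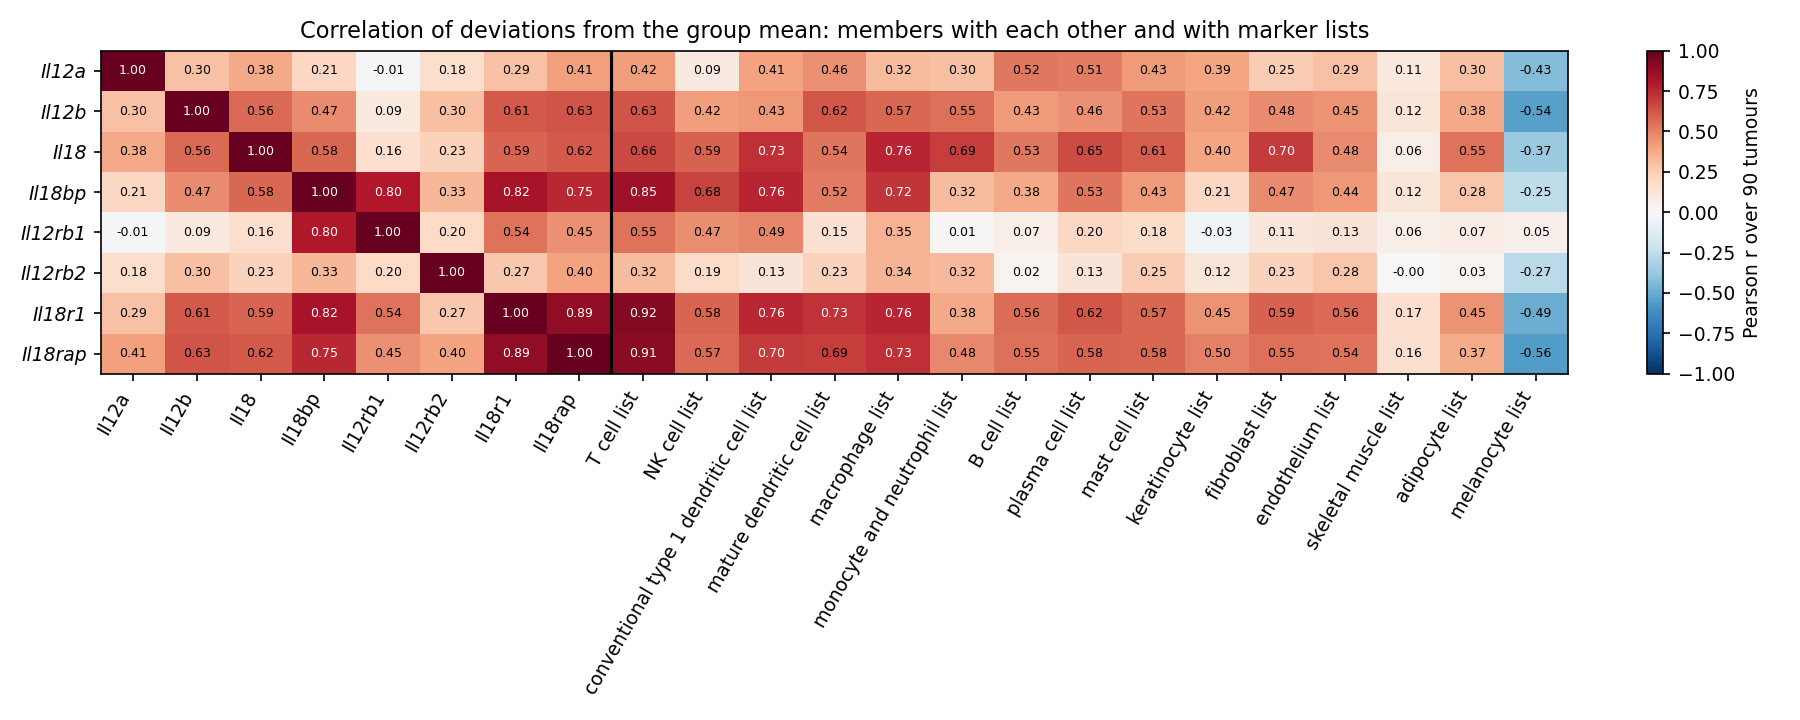
Pearson correlations over 90 tumours of log2 values after subtracting each study-by-outcome group's mean, among the 8 measured members (left of the black line) and between members and the means of marker gene lists (right). Il18r1 and Il18rap reach 0.92 and 0.91 with the T cell list, Il18 and Il18r1 both reach 0.76 with the macrophage list, and Il12rb1 reaches 0.55 with the T cell list.

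Markers of several immune and stromal cell types moved with the same contrast, and those of other types mostly did not. In bulk tumours, fewer cells of a type and less RNA per cell cannot be told apart. Responders exceeded non-responders in 6 of 6 measured T cell markers, 8 of 8 macrophage markers, 6 of 6 fibroblast markers and 2 of 3 natural killer cell markers, and 3 of 8 melanocyte markers were lower. Of the dendritic cell lists, 1 of 5 markers of conventional type 1 cells and 3 of 5 of mature cells were higher. The monocyte and neutrophil, mast cell and endothelium lists each had 4 of 5 higher. Adipocyte markers were higher for 3 of 4, plasma cell markers for 2 of 5 and B cell markers for 1 of 5. Skeletal muscle and keratinocyte markers were higher for 0 of 6 each, and 1 keratinocyte marker was lower. Of all genes, 18.9% were called higher and 32.3% lower, and in study 2 alone 0.616% were called higher. In study 2 alone 1 of 6 T cell markers was higher, and 0 of 8 macrophage, 0 of 6 fibroblast, 0 of 3 natural killer cell markers and 0 of 5 in either dendritic cell list passed, in the fit that called 1 of 8 members. The T cell list mean was 5.57 to 8.19 in study 2 responders and 5.32 to 9.82 in non-responders, and 6.69 to 9.93 and 5.53 to 6.84 in study 3. The macrophage list mean was 8.54 to 11.88 and 8.41 to 11.93 in study 2, and 9.69 to 12.11 and 9.22 to 10.12 in study 3. The part of these cell types in the members' differences was not tested.

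Members also followed these lists within groups, after each group's mean was subtracted. The deviations come from the same arrays and also set the SE of the limma fit, so they are not separate evidence. With the T cell list, r was 0.92 for Il18r1, 0.91 for Il18rap and 0.85 for Il18bp, and 0.89, 0.88 and 0.87 without the low tumours. With the macrophage list Il18 had its highest value among the lists, 0.76. That list was not particular to Il18: Il18r1, Il18rap and Il18bp reached 0.76, 0.73 and 0.72 with it. With the conventional type 1 dendritic cell list, Il18bp, Il18r1, Il18 and Il18rap reached 0.764, 0.755, 0.728 and 0.702. Il12rb1 reached 0.55 with the T cell list, and 0.67 without the low tumours. Keratinocyte markers, from a cell type known to make IL-18, were dim for 6 of 6 genes.

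The partner chains and neighbours of the pathway were taken from lists of known roles. Beside their counts in responders against non-responders stand 18.9% of all genes called higher and 32.3% called lower. Of 4 measured partner chains of IL-12, IL-23 and IL-27, 3 were higher in responders and 1 was lower. Ebi3, which pairs with the Il27 product, rose by 0.98 ± 0.20, Il6st by 0.54 ± 0.12 and Il27ra by 0.32 ± 0.13, the last 2 being the chains of the IL-27 receptor. Il23a, the chain that pairs with Il12b to form IL-23, was dim and fell by 0.44 on the log2 scale (SE 0.08, adjusted p 6.66e-05). The median of the 4 was 0.43, against -0.06 over all genes. In study 3 alone the same 3 were higher and Il23a lower, where 22.4% of all genes were called lower. In study 2 alone none was higher, and Il23a was lower (-0.36 ± 0.10, adjusted p 0.0396), where 2.01% of all genes were. Il27ra differed by -0.0032 ± 0.16 in study 2 and by 0.64 ± 0.21 in study 3.

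Of 7 measured genes that carry IL-12 and IL-27 signals, 7 were higher in responders. They included the T cell factor Tbx21 (1.67 ± 0.26), Stat4 (1.04 ± 0.20), Jak2 (0.40 ± 0.08) and Tyk2 (0.43 ± 0.09), with Tbx21 and Stat4 among the dim genes. In study 2 alone 0 of the 7 passed, where only 0.616% of all genes were called higher. In study 3 alone all 7 did, where 14.4% of all genes were. The difference between studies passed for 0 of the 7 and for 0% of all genes.

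Of 6 measured genes that mature and release IL-18, 2 were higher: Gsdmd (0.45 ± 0.09), whose product forms the pore of release, and Nlrp3 (0.30 ± 0.08), an inflammasome sensor. Casp1, which cleaves the precursor, differed by 0.06 ± 0.12 and its adaptor Pycard by 0.24 ± 0.13, and neither passed. Of 6 genes of IL-18 signalling, 5 were higher, among them Myd88 (0.41 ± 0.09), Rela (0.44 ± 0.13), Traf6 (0.19 ± 0.06) and Irak2 (0.31 ± 0.10). In study 2 alone 1 of 6 maturation genes and 0 of 6 signalling genes were higher, where 0.616% of all genes were. In study 3 alone 2 and 4 were higher, beside 14.4% of all genes.

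Of 5 other IL-1 receptor family genes, 3 were higher and 1 lower. The inhibitory receptor Sigirr was higher by 0.45 ± 0.13, Il1r1 by 0.57 ± 0.21 and the decoy receptor Il1r2 by 0.38 ± 0.15, and Il1rl2, a dim gene, fell by 0.14. Of 10 inducers of IL-12, 5 were higher and 1 lower. Irf8, a factor of dendritic cell and macrophage development, rose by 1.49 ± 0.24, Irf1 by 0.74 ± 0.14, Ifngr1 by 0.51 ± 0.12 and Cd40 by 0.48 ± 0.12. The median over the 10 was 0.15. Study 2 alone called 0 of 5 receptor family genes and 2 of 10 inducers higher, beside 0.616% of all genes. Study 3 alone called 3 and 4 higher and 1 of each list lower. Over all genes 14.4% were higher and 22.4% lower there.

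Of 8 listed genes known as products of cells stimulated by IL-12 and IL-18, 6 were higher. Ccl5 rose by 1.71 ± 0.27, Ifng, dim on this array, by 1.61 ± 0.26, Ccl3 by 1.35 ± 0.23 and the pore-forming Prf1 by 1.10 ± 0.20. In study 2 alone Ccl5, Ifng and Ccl3 passed, where 0.616% of all genes were called higher. Of 8 genes known to respond to IL-27, 7 were higher, including the coinhibitory receptor Havcr2 (1.10 ± 0.21), the ectonucleotidase Entpd1 (1.06 ± 0.20), Prdm1 (1.11 ± 0.22) and the signalling brake Socs3 (0.76 ± 0.17). Of these 8, 1 was higher in study 2 alone and 7 in study 3 alone, beside 0.616% and 14.4% of all genes. These 8 also respond to many other signals. The part of IL-12, IL-18 or IL-27 in the levels of either list was not tested.

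Against IgG tumours, responders were higher in 3 of 4 partner chains, 7 of 7 genes that carry IL-12 and IL-27 signals, 3 of 6 of IL-18 maturation, 4 of 6 of IL-18 signalling, 2 of 5 of the IL-1 receptor family, 4 of 10 inducers, 6 of 8 products and 7 of 8 IL-27 responsive genes. Il23a was the single gene of these lists called lower. Of all genes, 15.3% were called higher and 20.1% lower. In non-responders against IgG tumours 0 genes of any of the 8 lists and 0.00550% of all genes were called. In that limma comparison 1101 genes had an unadjusted p under 0.05.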

How the data were processed

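RNA from 90 tumours (800 ng each) was measured on arrays with 45101 probe sets. The deposited values are log2 values made by the authors with RMA, and the submitters' processing notes also name limma; the sources used here do not say if the studies were normalized jointly. Array medians lay between 5.71 and 5.90. Arrays give no counts, so their number limits the precision. Probe sets naming 1 gene (34958) were kept; 932 named several and 9211 none. The set with the highest mean stood for each of 18194 genes, 9012 of which had over 1. With limma 3.58.1 in R 4.3.3, 12 group means were fitted over all arrays; contrasts weighted studies equally, tests were 2-sided, and p-values were adjusted by Benjamini-Hochberg over all genes (threshold 0.05). In simulated data on 18194 genes, responder against non-responder recovered 85.0% of 100 genes changed by 0.5 (log2) and 98.0% of 100 changed by 1, with 8 false calls. The simulated noise was normal and independent between genes, unlike these tumours, so the rates need not hold for them.

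Members and gene lists were chosen with earlier results of these data known. All members are named, with up to 4 genes of each pathway list (smallest p, responder against non-responder) and the 3 genes most correlated with each member that is not dim. Alternatives concerned the variance trend, array weights, probe sets, dim genes, centring, quantile normalization, the groups fitted, a 3 prime to 5 prime covariate and left-out tumours; the correlations without low tumours were added after seeing the data.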

Additional observations from a re-analysis of the deposited data

Results flagged for a closer look

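In groups of 4 to 10 tumours the highest or lowest value was compared with its nearest neighbour by Dixon's ratio at its 95% critical value. Of 32 gene and group pairs, 3 had a tumour that stood apart, and chance gives about 1 in 20. Il12a, a dim gene, stood at 4.76 in study 3 responder replicate 3, with the nearest tumour at 4.32; this is a tumour low in melanocyte transcripts. Il12a stood at 4.36 in study 3 IgG replicate 3, with the nearest at 3.93. Both values lie under the olfactory 95th percentile of 5.36. Il12rb1 stood at 5.23 in study 3 non-responder replicate 9, the lowest of that group, with the nearest at 6.01.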

How the results depend on the processing

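The counts of members called for responder against non-responder, and for responders or non-responders against IgG, stayed within 1.5 times under every setting run. In study 2, responder against non-responder gave 1 member, but 5 with array weights, 5 without the tumours low in melanocyte transcripts and 4 without non-responder replicate 14. Relapse against non-responder gave 3, but 6 with array weights and 5 without the low tumours, where 10626 and 7418 of all genes were called in either direction. Relapse against IgG gave 0, but 5 with array weights, 5 with only the compared groups fitted, 4 without the low tumours and 1 with the 3 prime to 5 prime covariate. In the same order 8799, 3880, 2316 and 512 of all genes were called. With array weights stabilization against responder gave 4 and IgG against PBS 2, each from 0. Stabilization against non-responder gave 4, but 0 without the low tumours, where 338 of all genes were called in either direction. Leaving out single tumours gave 0 to 3 members for relapse against non-responder and 0 to 4 for stabilization against non-responder, and 0 to 0 for relapse against responder or IgG, stabilization against responder, growth delay against responder or IgG, and IgG against PBS. The causes were not tested; the estimation of array weights stopped before it converged. Values of single members were recomputed for responder against non-responder and for the calls of the other comparisons, so gains elsewhere show only in the counts above. Of these 287, 259 kept their side of the threshold, 26 lost the call, 2 gained it (Il12rb2, with array weights and with quantile normalization) and none reversed. Il18 in study 3 lost its call with the mean of all probe sets, subtracted medians, quantile normalization within study (adjusted p 0.0732) and without the low tumours. No paired analysis was possible because the labels give every tumour its own animal number. Signal over background limits Il12a, Il12b and Il12rb2.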
